A study of Mus musculus with 4 samples.

Results

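Alpl, Phospho1, Enpp1, Smpd3, Enpp6, Slc20a1 and Slc20a2 are 7 genes that handle phosphate and pyrophosphate where bone mineral forms. They were chosen by name for that role, with earlier results of these data known, and make up 7 of the 56980 genes counted. Their RNA was measured in mesenchymal stromal cells (MSCs) of the adult bone marrow, the stromal population that holds niche cells and precursors of bone. From each of 4 male wild-type C57BL/6J mice aged 14 weeks, 1 library of full-length cDNA was made from 100 cells. The sort kept cells positive for CD51 and PDGFRa and negative for Sca1, CD31, Ter119 and CD45. The labels name no treatment, and the strain had been inbred in-house. The sort takes a mixed stromal population rather than a single cell type, and the libraries form 1 group, so comparisons were made between genes within a mouse.

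Bone mineral is a crystal of calcium and phosphate, and inorganic pyrophosphate blocks the growth of that crystal. Osteoblasts therefore set the balance outside the cell: ENPP1 makes pyrophosphate from ATP, ANK raises pyrophosphate outside the cell, and tissue-nonspecific alkaline phosphatase, the product of Alpl, cleaves pyrophosphate to phosphate. Inside the matrix vesicles where crystals start, PHOSPHO1 frees phosphate from phosphocholine, which the lipid enzymes encoded by Smpd3 and Enpp6 can supply, and the sodium-phosphate cotransporters PiT-1 and PiT-2, encoded by Slc20a1 and Slc20a2, carry phosphate across the membrane.

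Start regions are shown for the enzymes that split or make pyrophosphate, Alpl and Enpp1, for Phospho1 and for Enpp6. In GENCODE M21, the first exon of Phospho1 is the part no other gene shares. The sequences are those of RefSeq on GRCm38.p6, which held 5 of the 7 genes. Each runs 5′ to 3′ in the sense of the gene, from 250 bases before a start to 50 bases after it. Capitals mark matches on either strand to the RUNX core TGTGGT, the GC box GGGCGG, the TATA motif TATAAA or the AP-1 site TGANTCA. Alpl has 2 starts in that table, at chr4:137796335-137796634 and chr4:137766426-137766725, both on the minus strand.
Alpl, first start: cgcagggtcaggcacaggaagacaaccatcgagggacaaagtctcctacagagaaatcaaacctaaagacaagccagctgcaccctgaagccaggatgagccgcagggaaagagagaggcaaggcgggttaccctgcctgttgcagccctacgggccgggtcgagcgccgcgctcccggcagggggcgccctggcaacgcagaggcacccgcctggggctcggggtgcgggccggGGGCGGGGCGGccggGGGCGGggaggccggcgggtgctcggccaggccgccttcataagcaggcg
Alpl, second start: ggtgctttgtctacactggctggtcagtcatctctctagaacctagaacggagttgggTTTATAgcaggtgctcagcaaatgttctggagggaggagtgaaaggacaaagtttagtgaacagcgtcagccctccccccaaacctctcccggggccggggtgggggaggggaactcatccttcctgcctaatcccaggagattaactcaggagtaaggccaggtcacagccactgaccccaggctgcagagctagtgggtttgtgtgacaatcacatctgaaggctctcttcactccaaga
Phospho1, chr11:95824250-95824549, plus strand: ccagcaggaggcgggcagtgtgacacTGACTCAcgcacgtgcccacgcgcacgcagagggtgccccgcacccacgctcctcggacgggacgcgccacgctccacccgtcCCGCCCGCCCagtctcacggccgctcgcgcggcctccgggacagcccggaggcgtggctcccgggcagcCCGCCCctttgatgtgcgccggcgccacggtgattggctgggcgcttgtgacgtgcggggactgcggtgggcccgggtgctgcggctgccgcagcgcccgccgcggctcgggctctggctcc
Enpp1, chr10:24712110-24712409, minus strand: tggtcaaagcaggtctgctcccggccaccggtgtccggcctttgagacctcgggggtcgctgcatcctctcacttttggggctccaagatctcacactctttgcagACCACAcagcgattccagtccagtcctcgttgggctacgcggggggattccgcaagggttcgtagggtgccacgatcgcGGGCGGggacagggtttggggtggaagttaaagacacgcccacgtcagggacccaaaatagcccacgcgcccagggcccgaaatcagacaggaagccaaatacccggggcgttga
Enpp6, chr8:46986637-46986936, plus strand: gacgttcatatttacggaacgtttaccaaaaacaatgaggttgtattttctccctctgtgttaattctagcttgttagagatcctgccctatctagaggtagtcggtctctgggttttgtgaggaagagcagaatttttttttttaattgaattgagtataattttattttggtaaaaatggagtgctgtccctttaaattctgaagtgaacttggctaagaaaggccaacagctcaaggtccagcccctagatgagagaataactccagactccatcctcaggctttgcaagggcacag

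The first Alpl start holds 3 GC boxes, of which a pair overlap, in a window of 70% G and C, and the second holds a TATA motif in a window of 54.3%. Counts per gene do not tell which of the starts was used. Phospho1 has 3 GC boxes, a pair of them overlapping, and 1 AP-1 site in a window of 77% G and C. Enpp1 has 1 RUNX core and 1 GC box at 61.7%, and the Enpp6 window, at 40.3% G and C, has no match to these letters. Among 32851 start regions of the same length, 16.8% hold the RUNX core, 35.7% the GC box, 13.6% the TATA motif and 7.81% the AP-1 site, and the median share of G and C is 52.7%. The matches describe letters and say nothing of binding. Slc20a1 also had a start region in the table, and Smpd3 and Slc20a2 were named only.

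The 4 libraries held between 22738604 and 43545349 counts, with the deeper ones from mice 1 and 3. Genes with a count numbered 18683 in mouse 1, 16109 in mouse 2, 18907 in mouse 3 and 18802 in mouse 4. Mouse 2 thus had the fewest genes detected, although mouse 4 had the fewest counts. Counts were converted to TPM, transcripts scaled to a total of 1000000 in each library, which divides by the length of a gene's exons and so allows genes to be compared. Of 5 osteoblast marker genes, Bglap, encoding osteocalcin, was the highest and lay between 55668 and 156730 TPM. Runx2 was the lowest of them, between 37.4 and 53.7 TPM. Of 5 niche cell markers, the niche factor Cxcl12 was the highest and lay between 983 and 4329 TPM. The others were lower: Lepr lay between 31.9 and 120 TPM, Foxc1 between 16.8 and 44.7, Prrx1 between 10.6 and 19.4, and Ebf3 between 1.03 and 27.3. Of other cell types, the 5 endothelial markers summed to between 0.0465 and 1.28 TPM, with Cdh5 and Kdr at 0, and 4 erythroid markers to between 21.1 and 3766 TPM.

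All 7 genes had a median above 1 TPM over the 4 mice, the level taken as expressed. The background is 22.9% of all genes with a known length and 44.2% of protein-coding genes. The 7 genes were not chosen blind to these data, so the excess over that background is descriptive. Alpl, Smpd3, Enpp6 and Enpp1 exceeded 1 TPM in every mouse, as did 30.1% of protein-coding genes. Each of Slc20a2, Slc20a1 and Phospho1 fell below it in 1 mouse, and a different mouse for each. The median of the 7 medians was 18.2 TPM, where that of all protein-coding genes was 0.135 TPM, and the 7 genes together took between 749.9 and 1352 TPM of a library. In bulk samples of this kind, fewer expressing cells and less RNA per cell cannot be told apart.

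**Figure D1:**
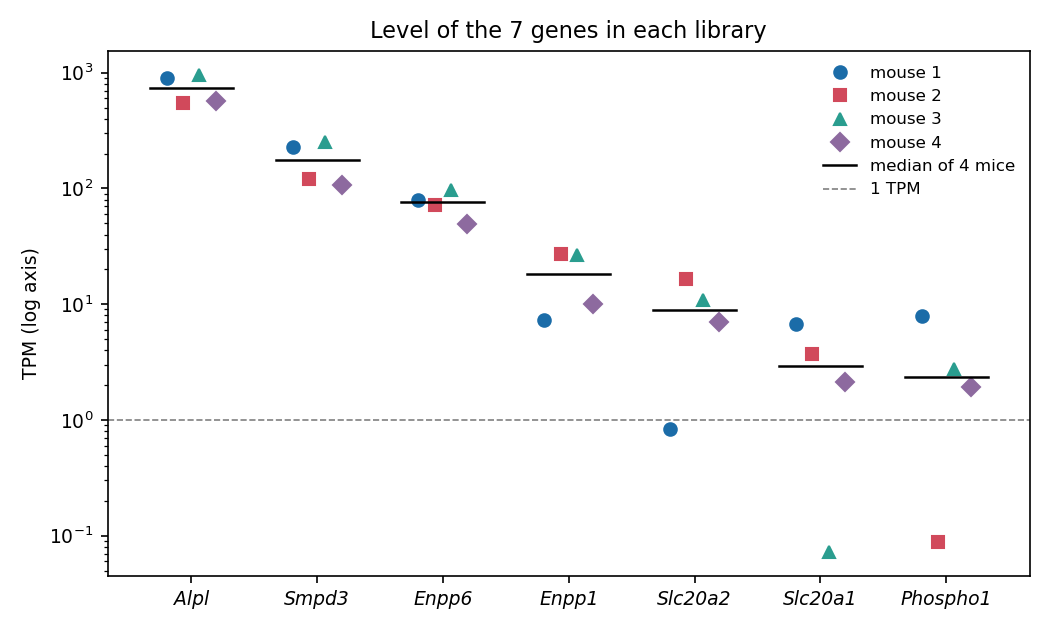
TPM on a log axis for the 7 genes, with 1 symbol per mouse, a bar at the median of the 4 mice and a dashed line at 1 TPM. Alpl lies between 550 and 963 TPM, above every other gene shown, and the points of Slc20a2, Slc20a1 and Phospho1 each fall under 1 TPM in 1 mouse.

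Alpl had the highest level of the 7 genes. It lies on chromosome 4 at 137741733 to 137796384 of GRCm38, on the minus strand, and its longest transcript has 12 exons. The level was 892 TPM in mouse 1, 550 in mouse 2, 963 in mouse 3 and 573 in mouse 4, a mean of 744 ± 214 TPM (SD, n = 4 mice). Its median stood above that of 99.4% of protein-coding genes. Mice 1 and 3 were high and mice 2 and 4 low, with a coefficient of variation of 28.7%, where counting error alone would give 0.486%. Among the 205 protein-coding genes within 2-fold of its level, the median coefficient of variation was 19.97%.

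Alpl was also the alkaline phosphatase gene that accounted for 100% of the TPM of its family in every mouse. Alpi, Alppl2 and Akp3, which encode the intestinal and germ cell type enzymes, had 0 counts in all libraries, and 3 counts would correspond to at most 0.138 TPM. The zinc transporters Slc30a5, Slc30a6 and Slc30a7, which load it with zinc, had means of 16.3, 36.9 and 10.1 TPM and exceeded 1 TPM in every mouse. Of 13 genes of GPI anchoring, by which the enzyme is held on the cell surface, 10 had a median above 1 TPM and 8 exceeded it in every mouse, beside 44.2% and 30.1% of protein-coding genes. Gpaa1 and Pigs, subunits of the enzyme that attaches the anchor, had means of 57.4 ± 9.99 and 55.9 ± 15.4 TPM (SD, n = 4 mice). Alkaline phosphatase is also known from neutrophils, whose 5 markers summed to between 4.09 and 30.7 TPM with Ly6g at 0.

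Phospho1, the phosphatase of matrix vesicles, had the lowest median of the 7 genes. It lies on chromosome 11 at 95824499 to 95832140, on the plus strand, with 3 exons. The level was 7.87 TPM in mouse 1, 0.0886 in mouse 2, 2.77 in mouse 3 and 1.91 in mouse 4, resting on 281, 2, 97 and 40 counts. Mouse 1 was highest, and in mouse 2 the count was below the 3 counts taken as detectable. The mean was 3.16 ± 3.33 TPM (SD, n = 4 mice), so the spread between mice exceeded the mean. The coefficient of variation was 105.6%, where the median of the 3525 protein-coding genes within 2-fold of its level was 86.0%.

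The annotation limits how the level of Phospho1 can be read. In GENCODE M21, only 211 of its exonic bases, the first exon, belong to it alone. They make up 10.4% of its 2029 exonic bases. The exons of Zfp652, on the same strand, cover 89.6% of them and those of Abi3, on the opposite strand, cover 84.2%. Under the default setting of featureCounts, read pairs that fall on more than 1 gene are left out, and no option that changes this is stated. The exons of the later Ensembl annotation that the authors used for counting were not examined, so the part of the pairs left out is not known. Zfp652 had 820, 236, 587 and 199 counts in mice 1 to 4 and Abi3 had 12, 0, 97 and 73. Divided by its unshared bases, Phospho1 reached 72.7, 0.814, 25.2 and 17.7 TPM, a mean of 29.1 ± 30.8, and moved from the seventh to the fourth place among the 7 genes. Its level relative to other genes is therefore uncertain.

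**Figure D2:**
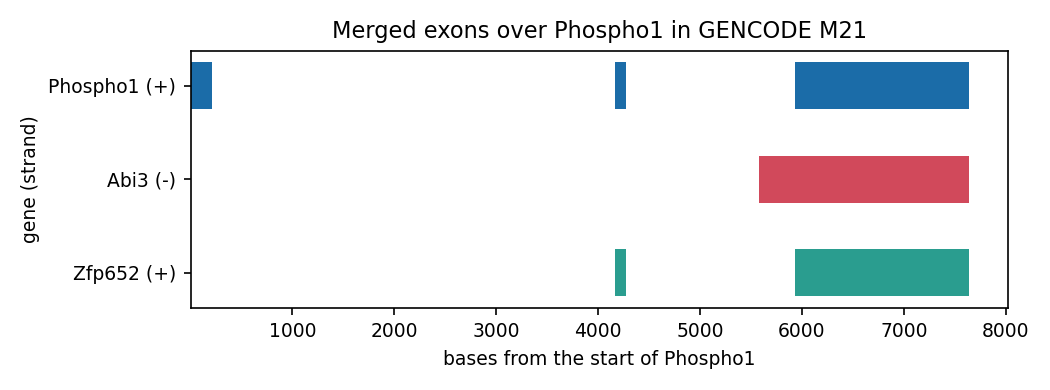
Merged exons of Phospho1, Abi3 and Zfp652 in GENCODE M21, drawn to scale against the distance in bases from the start of Phospho1. The strand of each gene is in brackets. The first 211 bases are covered by Phospho1 alone, and its other exons lie under exons of the other genes.

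Phospho1 is also known from red cell precursors, and the sort was set against Ter119, a marker of that lineage, and CD45. Together, 4 erythroid markers (Hbb-bs, Hba-a1, Alas2 and Slc4a1) reached 3766 TPM in mouse 1, 21.1 in mouse 2, 1318 in mouse 3 and 273.6 in mouse 4, which is the same order of mice as that of Phospho1. Alas2, the heme synthesis enzyme of red cells, had 19.99, 0, 7.42 and 0 TPM, and Slc4a1, encoding the anion exchanger of red cells, had 40.4, 0, 20.1 and 3.54 TPM. The part of such RNA in the counts of Phospho1 was not tested.

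The TPM of Alpl exceeded that of Phospho1 by 113-fold in mouse 1, 348-fold in mouse 3 and 300.3-fold in mouse 4. In mouse 2 the ratio was 6204, with a 95% counting interval from 1717 to 51228 because it rests on 2 counts. The difference in log2(TPM + 1) was 7.82 ± 0.96 (SD, n = 4 mice), positive in 4 of 4 mice. The exact two-sided sign-flip permutation test gave p = 0.125, adjusted p = 0.156 over the 5 comparisons made. With 4 mice 0.125 is the smallest p this test can give, so no comparison could pass 0.05. With the unshared length of Phospho1 the difference was 5.43.

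Enpp1, the enzyme that makes extracellular pyrophosphate, lies on chromosome 10 at 24637914 to 24712159, on the minus strand, with 25 exons. Its level was 7.27 TPM in mouse 1, 27.1 in mouse 2, 26.4 in mouse 3 and 10.1 in mouse 4, a mean of 17.7 ± 10.5 TPM (SD, n = 4 mice). Mice 2 and 3 were high and mice 1 and 4 low, a different order from that of Alpl. Enpp1 is known from plasma cells as well. The 5 B and plasma cell markers summed to 27.3, 121.5, 98.1 and 26.1 TPM, also high in mice 2 and 3. Nearly all of this was Sdc1, which other cells express too, at 27.3, 121, 98.1 and 24.6 TPM, while Cd79b and Ms4a1 were at 0 and Jchain had at most 1 count. The 5 niche cell markers summed to 1052, 4532, 2314 and 1194 TPM, nearly all of it Cxcl12. The others had other orders, with Lepr, Foxc1 and Ebf3 highest in mice 2 and 4 and Prrx1 in mice 1 and 3. The part of these cells in the level of Enpp1 was not tested.

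The TPM of Alpl was 123, 20.3, 36.4 and 57.0 times that of Enpp1 in mice 1 to 4. Every mouse thus had more RNA per length for the enzyme that removes pyrophosphate than for the one that makes it, and the size of this difference ranged widely. The difference in log2(TPM + 1) was 5.47 ± 1.03 (SD, n = 4 mice), larger than its spread, with an exact permutation p = 0.125, adjusted p = 0.156. RNA levels do not give the activities of the enzymes.

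Ank, which is listed under that symbol and encodes the membrane protein that raises pyrophosphate outside the cell, was above Enpp1 in 4 of 4 mice. It had 35.5 TPM in mouse 1, 37.5 in mouse 2, 114 in mouse 3 and 52.1 in mouse 4, a mean of 59.8 ± 37.0 TPM (SD, n = 4 mice). Mouse 3 was high and the other mice lay close together. Enpp1 minus Ank was -1.73 ± 0.86 in log2(TPM + 1), with an exact permutation p = 0.125, adjusted p = 0.156, and it was nearest to 0 in mouse 2, at -0.46. Without a length, as log2(CPM + 1), it was -0.30 ± 0.89, smaller than its spread, with Enpp1 higher in 1 of 4 mice. Abcc6, a transporter that releases ATP from the liver, had at most 1 count in a mouse. Of the channels and vesicle transporters for ATP, Slc17a9 exceeded 1 TPM in every mouse, at 31.3 ± 15.3 TPM, and so did Panx3, a pannexin of bone and cartilage. Panx3 had 82.2, 9.55, 131 and 7.10 TPM, with mice 1 and 3 high and mice 2 and 4 low.

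**Figure D3:**
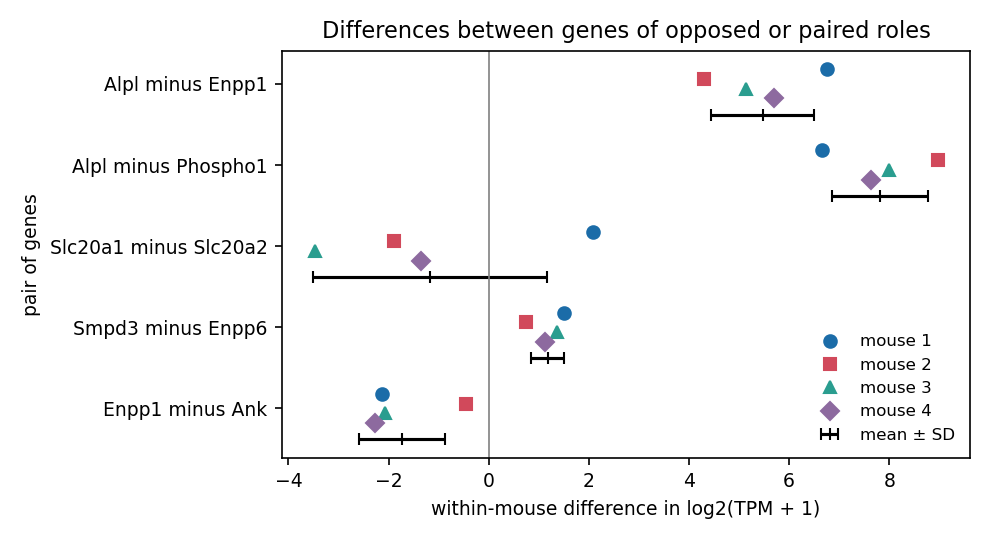
Difference in log2(TPM + 1) between the genes of 5 pairs within each mouse, with 1 symbol per mouse, the mean ± SD as a bar under them and a line at 0. Points lie on 1 side of 0 in 4 pairs, and those of Slc20a1 minus Slc20a2 lie on both sides.

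Smpd3 and Enpp6, the lipid enzymes that free phosphocholine, followed Alpl in level. Smpd3 encodes neutral sphingomyelinase 2, which splits sphingomyelin, and lies on chromosome 8 at 106252548 to 106337988, on the minus strand, with 9 exons. It had 229 TPM in mouse 1, 121 in mouse 2, 251 in mouse 3 and 107 in mouse 4, a mean of 177 ± 73.6 TPM (SD, n = 4 mice). As with Alpl, mice 1 and 3 were high and mice 2 and 4 low, and the ranges of these genes did not overlap. Enpp6 encodes a phosphodiesterase that takes the choline head group from lysophospholipids and glycerophosphocholine, and lies on chromosome 8 at 46986887 to 47096762, on the plus strand, with 8 exons. It had 80.1, 72.1, 97.7 and 48.9 TPM over mice 1 to 4, which averages 74.7 ± 20.3 TPM (SD, n = 4). Mice 1 and 3 were again above mice 2 and 4.

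Both were the main members of their families in these cells. Smpd3 held 60.6%, 47.1%, 59.5% and 55.4% of the TPM of the 7 sphingomyelin phosphodiesterase genes in mice 1 to 4, a mean of 55.7% ± 6.11 (SD, n = 4 mice). Smpdl3a followed with 73.4 ± 20.7 TPM and Smpd1, the lysosomal enzyme, with 36.1 ± 28.1 TPM, while Smpd5 had 0 counts. Enpp6 held 37.4%, 38.9%, 44.0% and 41.8% of the TPM of the 7 ENPP genes, a mean of 40.5% ± 2.97, and Enpp1 between 3.39% and 14.6%. The share of Enpp6 varied less between mice than its level. Enpp2, which encodes autotaxin, had 108.4 TPM in mouse 1 and between 7.82 and 17.2 in the other mice, and was the 1 family member above Enpp6 in any mouse.

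Smpd3 exceeded Enpp6 by 2.86-fold in mouse 1, 1.68-fold in mouse 2, 2.57-fold in mouse 3 and 2.19-fold in mouse 4. The difference in log2(TPM + 1) was 1.18 ± 0.33 (SD, n = 4 mice), larger than its spread, with an exact permutation p = 0.125, adjusted p = 0.156. Of 10 further genes of phosphocholine supply and use, 7 had a median above 1 TPM and 6 exceeded it in every mouse, beside the same 44.2% and 30.1% of protein-coding genes. Gde1, a glycerophosphodiesterase, was the highest at 137 ± 68.6 TPM. The choline transporter Slc44a1 had 22.0 ± 8.89 TPM, and the choline kinase gene Chka, whose enzyme makes phosphocholine, had 8.29 ± 4.56 TPM (SD, n = 4 mice for each).

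The cotransporter genes Slc20a1 and Slc20a2 were low and varied between mice, as did many genes of their level. The coefficient of variation was 89.1% for Slc20a1, and 52.6% of the 3524 protein-coding genes within 2-fold of its level varied less. For Slc20a2 it was 74.9%, and 64.1% of 3895 such genes varied less. The median coefficients of these genes were 86.0% and 62.3%. Slc20a1 lies on chromosome 2 at 129198764 to 129211616 and Slc20a2 on chromosome 8 at 22476788 to 22569612, both on the plus strand with 11 exons. Slc20a1 had 6.75 TPM in mouse 1, 3.71 in mouse 2, 0.0726 in mouse 3 and 2.12 in mouse 4, from 663, 230, 7 and 122 counts. Slc20a2 had 0.841, 16.6, 10.9 and 7.01 TPM in mice 1 to 4, from 92, 1145, 1167 and 450 counts. The mouse highest for Slc20a1 was thus lowest for Slc20a2. Of the exonic bases of Slc20a1 in GENCODE M21, 13.1% are shared with genes on the opposite strand. Counting did not use strand, so under the default setting of featureCounts read pairs on shared bases would be left out.

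The means were 3.16 ± 2.82 TPM for Slc20a1 and 8.82 ± 6.61 TPM for Slc20a2 (SD, n = 4 mice). Slc20a1 was 8.03-fold above Slc20a2 in mouse 1 and below it in the other 3 mice. In mouse 3, Slc20a2 exceeded Slc20a1 by 149.7-fold, with a 95% counting interval from 72.6 to 372. Slc20a1 minus Slc20a2 was -1.16 ± 2.34 in log2(TPM + 1), smaller than its SD, and the exact permutation test gave p = 0.5, adjusted p = 0.5. A difference between the cotransporters beyond the spread of the mice was not shown. Slc20a2 held between 6.86% and 69.1% of the TPM of 7 phosphate transporter genes and Slc20a1 between 0.461% and 55.1%.

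Of the other phosphate transporters, Xpr1, the exporter of phosphate, was the 1 of 5 with a median above 1 TPM, beside 44.2% of protein-coding genes. Xpr1 had 4.67, 5.17, 4.77 and 2.47 TPM in mice 1 to 4. Its mean of 4.27 ± 1.22 TPM (SD, n = 4 mice) varied less than that of either cotransporter. Slc34a1 and Slc34a3, the cotransporters of the kidney, and Slc17a1 had at most 1 count in a mouse, and Slc34a2 at most 23 counts.

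The order of the 7 genes by median TPM was Alpl, Smpd3, Enpp6, Enpp1, Slc20a2, Slc20a1 and Phospho1. The ranges of the first 4 over the mice did not overlap one another. The differences in log2(TPM + 1) between them were 2.12 ± 0.22 for Alpl and Smpd3, 1.18 ± 0.33 for Smpd3 and Enpp6, and 2.17 ± 0.82 for Enpp6 and Enpp1 (SD, n = 4 mice). Enpp1 exceeded Slc20a2 in 4 of 4 mice by 1.13 ± 0.76, although their ranges overlapped. Slc20a2 and Slc20a1, and Slc20a1 and Phospho1, did not differ beyond their spread, the latter by 0.05 ± 1.61, and without mouse 2 the last places were exchanged.

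The deviations of each mouse from the mean of a gene were compared between genes, which measures both the order of the mice and the size of the swings. The root mean square distance between the centred log2(TPM + 1) values of 2 genes was 0.19 for Alpl and Smpd3, 0.24 for Alpl and Enpp6 and 0.29 for Smpd3 and Enpp6. It was 0.83 for Alpl and Phospho1, which swung more widely. It was 0.66 for Enpp1 and Slc20a2, 0.71 for Enpp1 and Enpp6, 2.02 for Slc20a1 and Slc20a2, and 2.25 for Phospho1 and Slc20a2. In Alpl, Smpd3, Enpp6 and Phospho1, mice 1 and 3 were above mice 2 and 4. Those were also the deeper libraries, their headers carry neighbouring library numbers, and no label calls this a batch. The 5 osteoblast markers did not share 1 order. Sp7, a transcription factor, had 339, 158, 255 and 151 TPM, while Bglap had 96604, 119827, 55668 and 156730 TPM, and the summed list was lowest in mouse 3. The summed macrophage and osteoclast markers had 682, 274, 548 and 355 TPM, with Adgre1, Csf1r and C1qa at 0 and Ctsk the main contributor. Acp5, the remaining marker of that list, had 79.2, 0, 48.2 and 7.58 TPM, also higher in mice 1 and 3. The 5 chondrocyte markers summed to 6.87, 0.213, 12.2 and 1.28 TPM, with the same mice high. They did not share 1 order: Acan had 2.64, 0, 0 and 1.19 TPM and Col9a1 had 1.82, 0.213, 12.2 and 0.0573. The part of osteoclast or chondrocyte RNA in the levels of Alpl, Smpd3, Enpp6 and Phospho1 was not tested. Depth, cell makeup and expression per cell cannot be told apart in 4 libraries of 1 group.

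**Figure D4:**
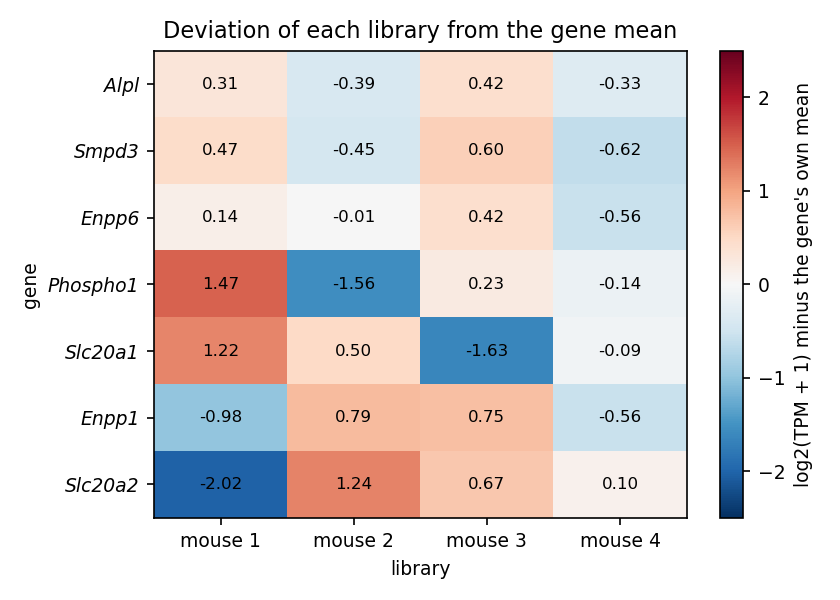
Deviation of log2(TPM + 1) in each mouse from the mean of the same gene, in log2 units, with red above and blue below the mean. Alpl, Smpd3, Enpp6 and Phospho1 are above their means in mice 1 and 3, and Slc20a2 ranges from -2.02 in mouse 1 to 1.24 in mouse 2.

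The nearest genes to each member by that distance were sought among protein-coding genes with a median above 10 TPM. Genes whose centred values spread much less than those of the member were left out, so the number compared differs between members. They were Aimp1, Mtmr6 and Anapc11 for Alpl, Psmd3, Hmox2 and Cdk4 for Smpd3, and Sfr1, Slirp and St7l for Enpp6. These patterns were common: 552 of 4391 genes lay within 0.25 of Alpl, 258 of 3864 of Smpd3 and 461 of 4404 of Enpp6. For Enpp1 the nearest were Olfml2b, Ccdc25 and Ctsc, with 45 of 3038 within 0.25, and for Slc20a2 Vegfc, Fer and Tspan12, with 10 of 1819. With 4 mice such likeness describes the order of the mice and the size of the swings, and no more. Phospho1 and Slc20a1 had under 10 counts in a mouse and were left out.

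Around the 7 genes, 49 of 72 other genes in 11 lists of the pathway had a median above 1 TPM, and 41 exceeded it in every mouse. The background for protein-coding genes is 44.2% and 30.1%. The lists were chosen with earlier results of these data known. In the systemic control of phosphate, 8 of 10 genes exceeded 1 TPM in every mouse. Dmp1, a matrix protein of osteocytes and late osteoblasts, had 1262, 588, 2105 and 435 TPM in mice 1 to 4, the same pair of mice being high as for Alpl. Phex, an endopeptidase whose loss lowers blood phosphate, had 42.2 ± 15.1 TPM (SD, n = 4 mice). The hormone gene Fgf23 had 0 counts in every mouse, where 3 counts would be at most 0.160 TPM, and its coreceptor gene Kl had at most 1 count.

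Receptors for hormones of mineral metabolism were expressed, with Pth1r at 241 ± 75.3 TPM and Vdr at 94.2 ± 36.4 TPM (SD, n = 4 mice). Of 7 genes of extracellular nucleotide breakdown, 3 had a median above 1 TPM, which is close to the 44.2% of protein-coding genes. Entpd3, an ATP- and ADP-splitting ectoenzyme, had 232 ± 93.5 TPM, and the nucleoside transporter Slc29a1 had 267 ± 113 TPM. Nt5e, encoding CD73, had 8.56 TPM in mouse 3 and under 1 TPM in the others. Of the 5 other HAD phosphatases and pyrophosphatases, 4 had a median above 1 TPM, beside the same 44.2%. Only 2 of the 5 exceeded 1 TPM in every mouse, beside 30.1% of protein-coding genes. The cytosolic pyrophosphatase gene Ppa1 was the highest of them at 66.0 ± 38.8 TPM, and Phospho2, a relative of Phospho1, had 8.43, 0.104, 21.7 and 16.5 TPM in mice 1 to 4. Mouse 2 was thus the lowest for Phospho2 as well as for Phospho1. It was also the library with the fewest genes detected, and the part of this in both levels was not tested.

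**Figure D5:**
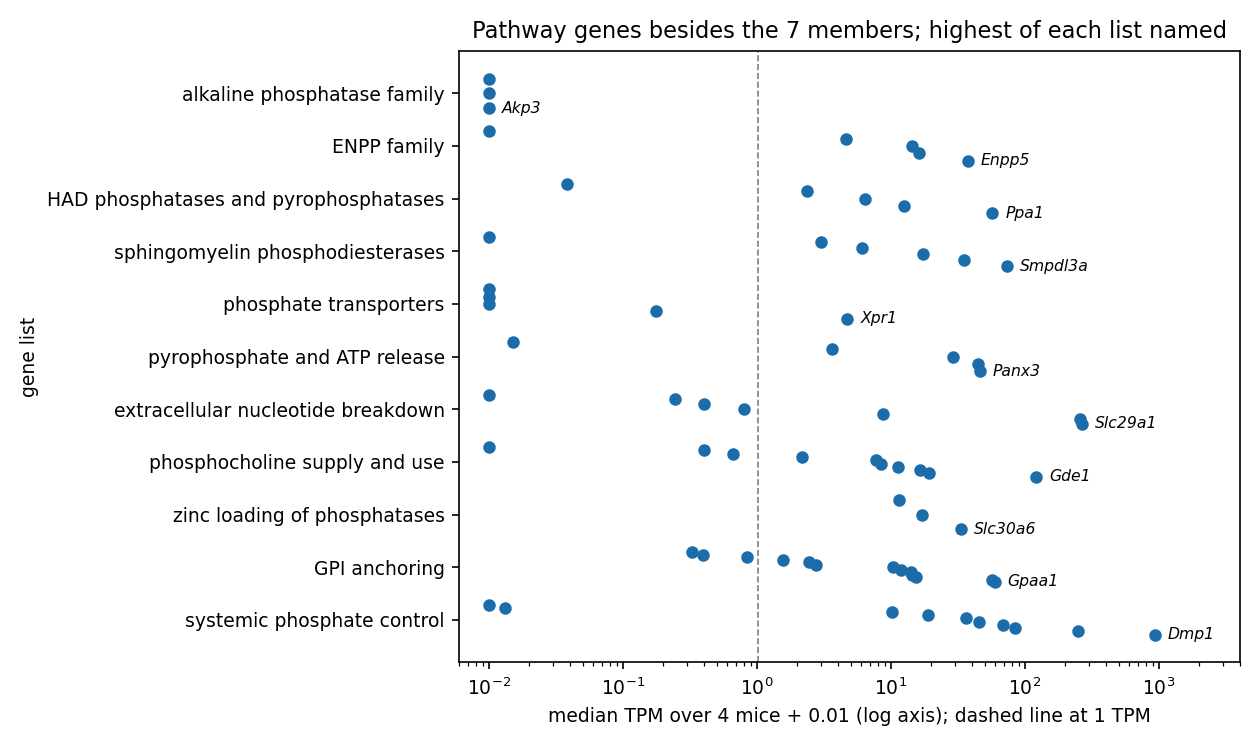
Median TPM over the 4 mice plus 0.01, on a log axis, for 72 genes of 11 pathway lists besides the 7 members, 1 point per gene and 1 row per list, with the highest gene of each list named and a dashed line at 1 TPM. Dmp1 has the highest median, and the 3 other alkaline phosphatase genes all lie at 0.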

How the data were processed

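The authors made cDNA by template switching from an oligo-dT primer, amplified and tagmented it, aligned read pairs to GRCm39 with STAR 2.7.10, counted unique pairs on exons with featureCounts (Subread 1.6.5) without a strand option, and deposited raw counts per gene. TPM was computed from these in Python 3.11.15 with merged exon lengths of GENCODE M21 on GRCm38, joined by gene identifier. This left out 4855 genes, and exons that changed between annotations alter the TPM of a gene. Differences within a mouse were taken on log2(TPM + 1), which understates those of low genes, and tested by exact two-sided permutation of their signs. The p-values were adjusted by Benjamini-Hochberg. PCR copies are not independent molecules, so counting intervals and the floor of 3 counts cover counting error only. The code was tested on simulated data. Alternatives used edgeR 4.0.16 TMM factors, DESeq2 1.42.0 size factors, other lengths, denominators, filters, cutoffs and pseudocounts, and each mouse left out. All 7 members are named. Of the pathway genes with a median above 1 TPM, a part is named with levels, and the rest enter the counts of genes only. Genes named from below that level are given by counts, except Nt5e, which was singled out after its values were seen. The members, lists and tests were chosen with earlier results of these data known. The erythroid markers are summed without 1 gene, which is not reported here.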

Additional observations from a re-analysis of the deposited data

Results flagged for a closer look

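Among 69 values examined over the 4 mice, 3 had a mouse standing apart from the rest, where chance gives about 3.45. The distance of that mouse from its nearest neighbour is given as a share of the whole range. Enpp1 minus Ank was -0.46 in mouse 2 and between -2.26 and -2.07 in the other mice, a share of 0.894. Enpp2, encoding autotaxin, had 108.4 TPM in mouse 1 and between 7.82 and 17.2 TPM in the others, a share of 0.907. Mepe, encoding a matrix protein of osteocytes, had 119 TPM in mouse 3 and between 5.75 and 19.0 TPM in the others, a share of 0.883.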

How the results depend on the processing

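Each of the 5 differences kept its direction under every alternative, and none could pass 0.05, because 4 mice give no p under 0.125 and 3 mice none under 0.25. Leaving out each mouse gave 5.04 to 5.86 for Alpl minus Enpp1, 7.43 to 8.20 for Alpl minus Phospho1, -2.24 to -0.40 for Slc20a1 minus Slc20a2, 1.07 to 1.33 for Smpd3 minus Enpp6 and -2.16 to -1.56 for Enpp1 minus Ank. Of the values for Slc20a1 minus Slc20a2, -2.24 came without mouse 1 and -0.40 without mouse 3. Asking for more than 1 TPM in every mouse left 4 of the 7 genes. Without a length, as CPM, Enpp1 minus Ank was -0.30 ± 0.89 (exact permutation p = 0.625, n = 4 mice), with Enpp1 higher in 1 mouse, as also with the longest transcript as length (-1.20), and the means were 1255 for Alpl, 76.3 for Enpp1, 7.40 for Slc20a1, 23.3 for Slc20a2, 385 for Smpd3 and 200.2 for Enpp6. Without the 10 highest genes and mitochondrial genes in the denominator, mean TPM was 1190 for Alpl, 28.3 for Enpp1, 281 for Smpd3 and 119 for Enpp6, by construction of the smaller total. The unshared exonic length, added after the overlap of Phospho1 was seen, gave that gene 29.1 TPM. Leaving out a mouse moved the mean of Phospho1 between 1.59 TPM (without mouse 1) and 4.18 TPM, and that of Slc20a1 fell to 1.96 TPM without mouse 1. The count of pathway genes was 49 with a median above 1 TPM. Over the alternatives it lay between 40, with a median above 5 TPM, and 54, with a mean above 1 TPM. The shares over all genes at those cutoffs are not given. Phospho1 and Slc20a1 had no value with at least 10 counts required in every mouse. Groups could not be paired by replicate number, because the libraries form 1 group.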
